A study of Mus musculus with 10 samples.

Results

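The genes described here are 10 mouse orthologs of Alzheimer's disease risk loci that microglia transcribe: *Inpp5d*, *Plcg2*, *Abi3*, *Picalm*, *Bin1*, *Sorl1*, *Rin3*, *Ptk2b*, *Cd2ap* and *Cass4*. They were taken by gene symbol from a count table of 55453 genes, and all 10 were among the 14481 genes with enough counts to be tested. The libraries came from microglia, the brain's resident macrophages, sorted as CD11b+ CD45 intermediate cells. The hippocampi were those of 3xTg AD females aged over 15 months (retired breeders), a model that carries mutant human APP and tau. Mice received glatiramer acetate (GA), a multiple sclerosis drug made of synthetic peptides of 4 amino acids in random order, at 0.1 mg a week for about 8 weeks by the labels (with an extra injection in the first week by the study's methods), or phosphate-buffered saline (PBS), and each group had 5 libraries. Both groups were homozygous for the model's alleles, the Swedish APP and P301L MAPT among them, with transgene expression driven by Thy1.2, a promoter used for expression in neurons. Library titles carry the prefix 388 for all 5 PBS libraries, and 394 (2 libraries) or 400 (3 libraries) for GA. The sources used here do not say what a prefix stands for, and no prefix holds both treatments, so a prefix effect and a GA effect cannot be told apart.

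Genome-wide association studies in people have linked these loci to late-onset Alzheimer's disease, and many of their genes act where microglia sense and take up material. Surface receptors such as TREM2 signal through the adaptor TYROBP and the kinase SYK to phospholipase C gamma 2 (*Plcg2*), while SHIP1 (*Inpp5d*) removes a phosphate from the membrane lipid PIP3 and dampens the same route. Other members bend membrane and build clathrin coats (*Picalm*, *Bin1*), sort cargo in endosomes (*Sorl1*, *Rin3*, *Cd2ap*) or tie adhesion receptors to the actin cytoskeleton (*Abi3*, *Ptk2b*, *Cass4*). The mice carry the mouse orthologs, not the human risk alleles, and the values below are RNA levels only.

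Totals ran from 32332185 to 38764643 counts per library, and the members together took 0.315% to 0.370% of them, with the highest share in GA library 394_2. Counts per member and library ran from 1336 (*Cass4*) to 53232 (*Inpp5d*). The microglial identity of the sort was checked on *P2ry12*, at 5570 to 7351 CPM (CPM being counts brought to a common library size with edgeR's TMM factors), and *Tmem119*, at 4927 to 6472 CPM. The defining markers of neurons and of T cells (*Snap25*, *Syt1*, *Cd3e*, *Cd3g*) each stayed under 1 CPM in all 10 libraries. Other lists were mixed. The astrocyte sum ran from 2.93 to 10.8 CPM (*Aqp4* at most 0.463, *Gfap* 0.717 to 4.74), the endothelial sum from 62.2 to 75.9 (*Cldn5* at most 0.244, *Flt1* 6.99 to 16.5) and the oligodendrocyte sum from 175 to 218 (*Mbp* 40.9 to 61.5). The B-cell sum ran from 539 to 673 CPM although *Cd79a* stayed at or below 0.618. A summed list of 7 neutrophil genes ranged from 36.0 to 423 CPM in PBS libraries and from 9.76 to 160 CPM in GA libraries, and all 7 genes had the lower mean in GA (exact two-sided permutation test of the sum, p = 0.0794). The sum of 6 border macrophage genes ranged from 43.3 to 246 CPM in PBS and from 47.3 to 185 CPM in GA. In sorted bulk RNA, fewer cells of a type and less RNA per cell cannot be told apart.

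Levels were first set in order within the cells, per kilobase of merged exons so that long and short genes can be compared. *Bin1*, which encodes a membrane-curving amphiphysin protein, stood at 174 ± 11.4 CPM per kilobase (SD, n = 10 libraries) and *Inpp5d* at 173 ± 10.9. These 2 genes could not be ordered, since *Bin1* was the higher in 5 of 10 libraries. *Plcg2* followed at 100.2 ± 5.89 CPM per kilobase, below *Inpp5d* in all 10 libraries. All 3 lay in the top 3% of the 14353 tested genes with a known length, at percentiles 98.8, 98.8 and 97.7.

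The middle of the order held *Abi3* (36.1 ± 1.46 CPM per kilobase), a subunit of the WAVE actin-regulating complex, and *Ptk2b* (24.1 ± 1.80), the calcium-responsive focal adhesion kinase PYK2. *Abi3* was above *Ptk2b* in all 10 libraries, and *Ptk2b* above the next gene in all 10. *Rin3* (13.8 ± 1.08), a guanine nucleotide exchange factor for the early endosome GTPase RAB5, *Picalm* (12.3 ± 1.74), a clathrin assembly protein, and *Sorl1* (11.2 ± 2.24), a sorting receptor that works with the retromer, overlapped one another. *Rin3* exceeded *Picalm* in 9 of 10 libraries and *Picalm* exceeded *Sorl1* in 7 of 10. At the low end came *Cass4* (8.49 ± 0.932), a scaffold of the CAS family that binds focal adhesion kinases, and *Cd2ap* (4.23 ± 0.516), an adaptor linking endocytic membrane to actin, which lay at the 49.7th percentile of tested genes.

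Gene length moved parts of this order. Most of the annotated *Abi3* exon sequence is shared with genes on the opposite strand, 2913 bases with *Zfp652*, 1708 with *Phospho1* and 234 with *Gngt2*, and reads there cannot be assigned without a strand setting, which is not given in the sources used here. If every *Abi3* count fell on its 1006 exon bases shared with no other gene, which the counts cannot show, its level would be 149 ± 6.04 CPM per kilobase, an upper limit that lies above *Plcg2* and below *Inpp5d*. *Phospho1* itself held 0 to 6 counts per library, *Gngt2* 1720 to 2556 and *Zfp652* 2302 to 3321. With the longest transcript as the length, *Ptk2b* (44.3 ± 3.30 CPM per kilobase) rose above *Abi3* (37.4 ± 1.52). *Cass4* (12.15 ± 1.33), *Cd2ap* (11.97 ± 1.46) and *Sorl1* (11.8 ± 2.37) came last, closer to one another than their SDs and so not ordered. Smaller shared stretches touch *Cass4* (1130 bases with *Gm14455*, 2 to 11 counts), *Bin1* (256 bases with *A830052D11Rik*, 54 to 129 counts) and *Sorl1* (185 bases with *Gm16214*, 3 to 16 counts).

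Paralogs were compared with the members in the same libraries, since each member belongs to a small family. *Inpp5d* was 23.5 times its paralog *Inppl1*, which encodes SHIP2 (7.37 CPM per kilobase), and *Plcg2* was 8.35 times *Plcg1* (12.01). *Ptk2b* exceeded *Ptk2*, the focal adhesion kinase FAK (1.52), 15.9-fold, and *Cass4* exceeded *Nedd9* (1.06) 8.04-fold, while the founding CAS gene *Bcar1* held 0 to 6 counts and *Efs* 0 to 4. *Abi3* was above *Abi1* (28.1) and *Abi2* (5.46). Each of these orders held in 10 of 10 libraries.

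Per kilobase of merged exons, other members were not the leading gene of their family. *Bin2*, a myeloid relative of *Bin1*, reached 333 CPM per kilobase against 174 for *Bin1*, with *Bin3* at 19.9 and the neuronal *Amph* at 0 to 17 counts. *Sort1*, encoding sortilin, stood at 50.0 CPM per kilobase against 11.2 for *Sorl1*, and *Sorcs1*, *Sorcs2* and *Sorcs3* held at most 14 counts in any library. For the RIN family, *Rin2* (43.0) and *Rinl* (20.1) both exceeded *Rin3*, and *Rin1* held 0 to 52 counts. *Sh3kbp1*, which encodes the CD2AP-related adaptor CIN85, was at 23.1 CPM per kilobase against 4.23 for *Cd2ap*. *Bin2*, *Sort1*, *Rin2*, *Rinl* and *Sh3kbp1* were above their member in all 10 libraries. Such counts of libraries do not cover the choice of length, and no paralog was recomputed with the longest transcript. By that length *Rin3* stood at 24.2 and *Cd2ap* at 11.97 CPM per kilobase. *Snap91*, the neuronal counterpart of *Picalm*, held 0 to 13 counts, so that nearly all reads of this pair fell on *Picalm*.

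**Figure D1:**
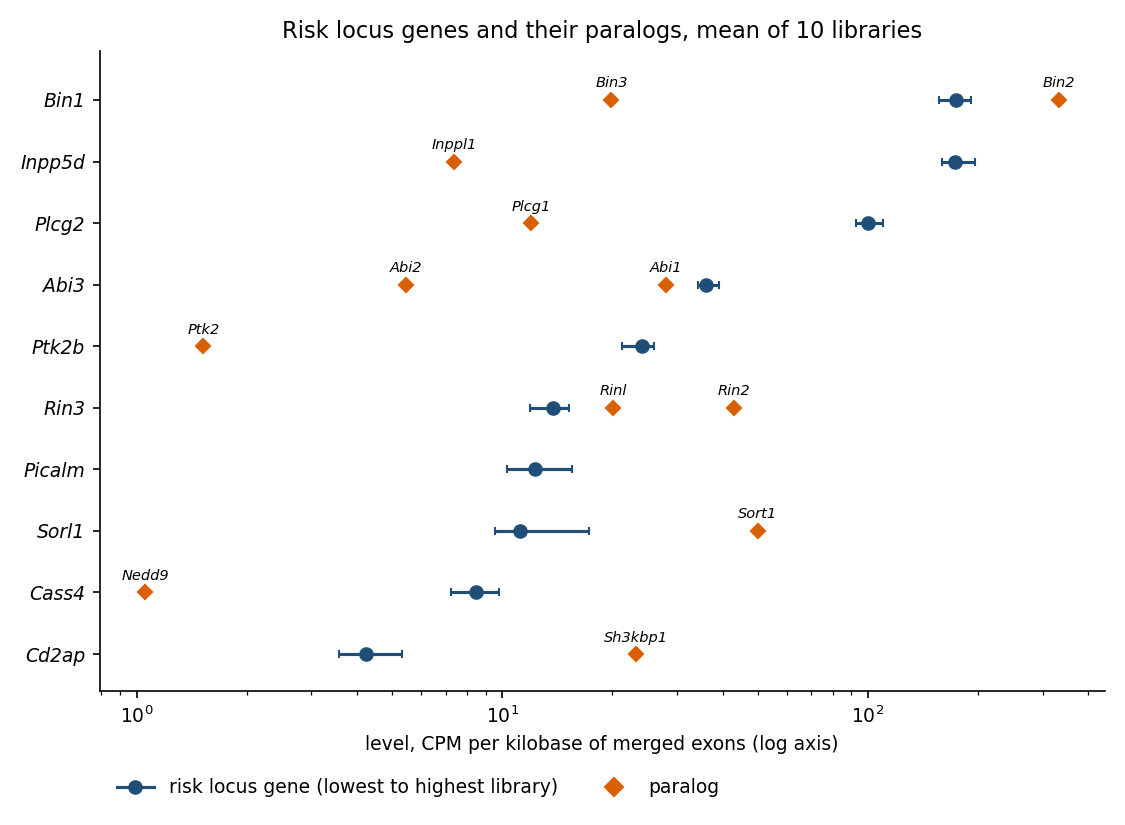
Level of each risk locus gene (circle, mean of 10 libraries, with a bar from the lowest to the highest library) and of its paralogs (diamonds, mean) in CPM per kilobase of merged exons on a log axis. Paralogs with 3 counts or fewer in any library are not drawn. *Bin1* and *Inpp5d* overlap near 174 and 173, and *Bin2*, *Sort1*, *Rin2*, *Rinl* and *Sh3kbp1* lie to the right of their risk locus gene.

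The comparison of GA with PBS asked whether treatment changed RNA levels of these genes. With edgeR's quasi-likelihood test and Benjamini-Hochberg adjustment over 14481 genes, 0 of 10 members were called at an adjusted p under 0.05, against 0 of all genes tested (0%). DESeq2 with its defaults likewise called 0 members, against 0.0106% of the genes it gave an adjusted p. At an unadjusted p under 0.05, edgeR gave 1 member, *Sorl1*, where 5.75% of all genes reached that mark, and DESeq2 also gave 1, where 4.53% of its genes did. No member had groups that did not overlap, against 0.891% of all genes. Of the members, 4 had a higher and 6 a lower fitted level in GA, and their median log2 fold change was -0.04, beside 0.00 over all genes tested. Nothing in the labels says that the libraries came from separate animals, so p-values measure the spread between these libraries.

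**Figure D2:**
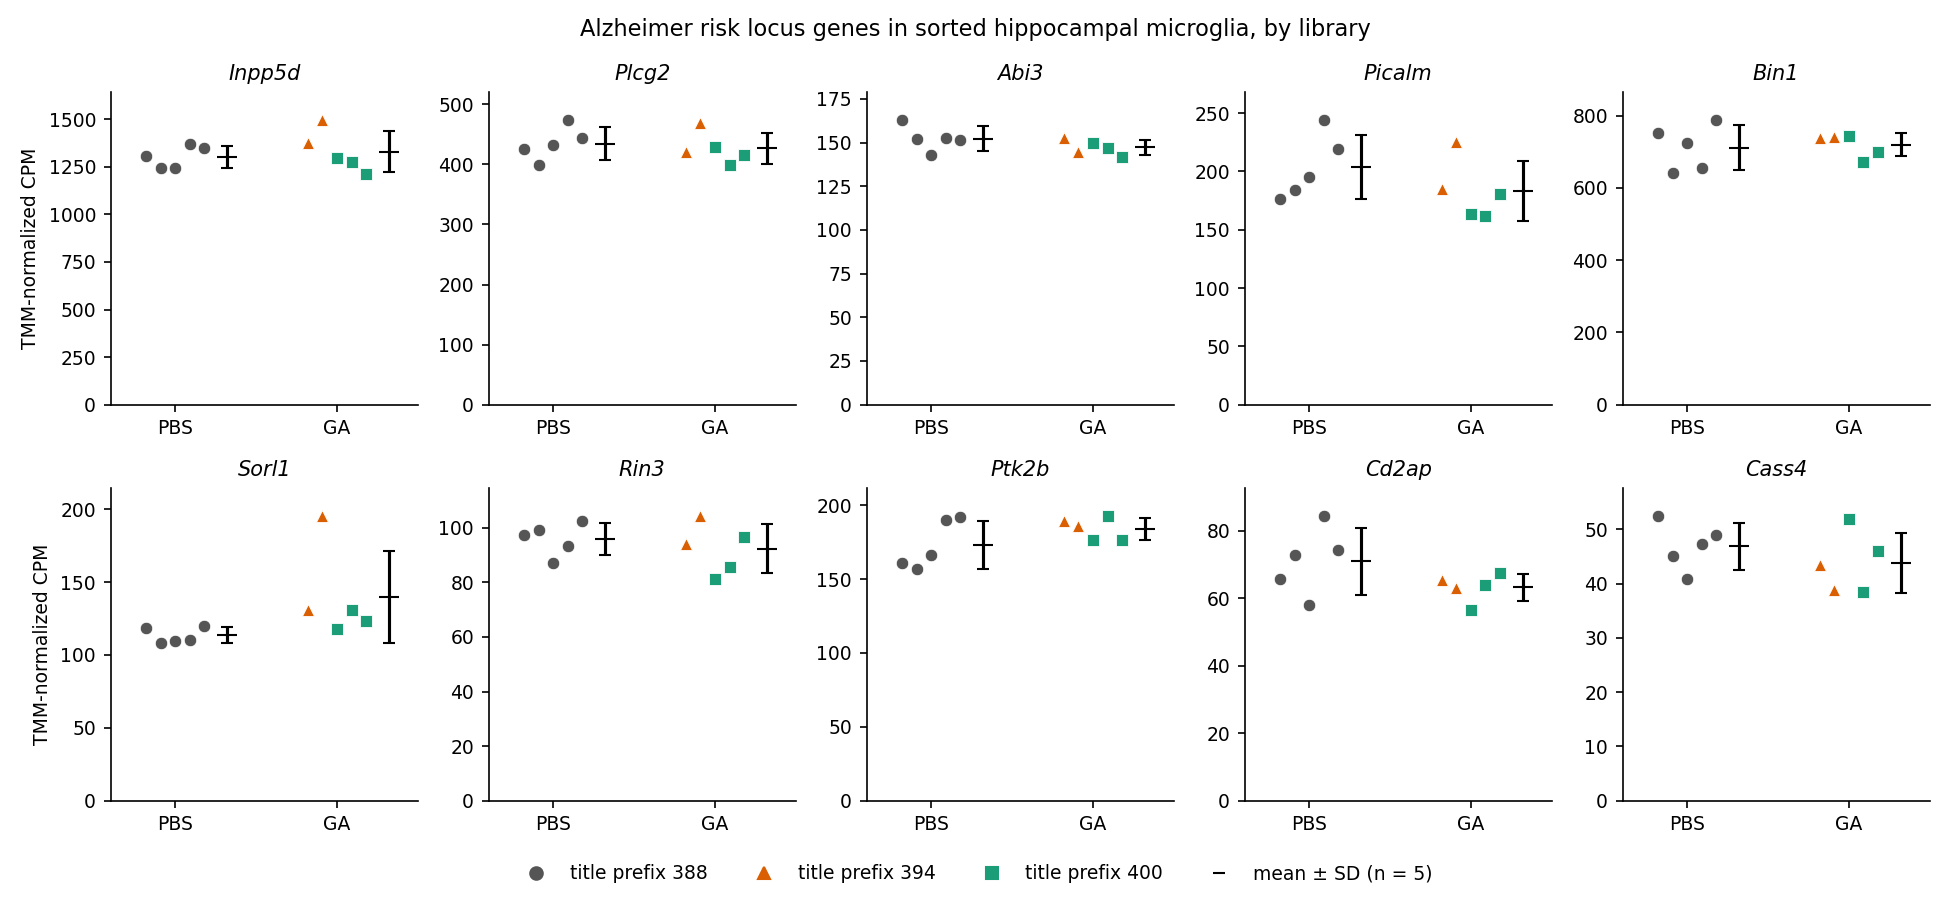
TMM-normalized CPM of each gene in every library, for 5 PBS libraries and 5 GA libraries, with marker shapes by title prefix and the mean ± SD of each group beside the points. Each vertical axis starts at 0 and has its own range. The highest *Sorl1* point is GA library 394_2 at 195, and in every panel the groups overlap.

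Among the signalling genes, *Inpp5d* (chr1:87620312-87720507 on GRCm38, plus strand) read 1308, 1242, 1246, 1368 and 1348 CPM in PBS libraries 388_1 to 388_5. In GA it read 1373 and 1494 in libraries 394_1 and 394_2, and 1294, 1275 and 1214 in libraries 400_1 to 400_3. The highest and the lowest of all 10 values were both GA libraries. Group means were 1303 ± 57.5 CPM in PBS and 1330 ± 108 in GA (SD, n = 5 each), a log2 fold change of 0.03 ± 0.06 (SE, edgeR adjusted p = 0.972). The 95% interval of the GA to PBS ratio ran from 0.929 to 1.12. The log2 value was -0.01 without GA library 394_2. Against the same PBS libraries it was 0.14 for the 394 libraries alone and -0.04 for the 400 libraries alone.

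*Plcg2*, whose product cleaves the lipid PIP2 into calcium and protein kinase C signals, and whose gene spans chr8:117498291-117635142 (plus strand), read 426, 399, 432, 473 and 444 CPM in the PBS libraries in the same order. In GA the values were 420 and 469 (prefix 394) and 429, 399 and 416 (prefix 400). Every GA value fell within the PBS range. The log2 fold change was -0.03 ± 0.06 (edgeR adjusted p = 0.975), with a ratio between 0.893 and 1.08. Its sign depended on single libraries, being 0.01 without PBS library 388_4.

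Genes of the wider receptor pathway were counted next. Of 26 listed genes of immunoreceptor and phosphoinositide signalling, all were tested, 13 were higher and 13 lower in GA, 0 were called and 2 had an unadjusted p under 0.05. Their median log2 fold change was -0.00. *Blnk*, an adaptor that brings phospholipase C gamma to SYK, had 440 ± 49.6 CPM in PBS and 389 ± 16.1 in GA (log2 fold change -0.18 ± 0.07, unadjusted p = 0.0316, edgeR adjusted p = 0.854). *Card9*, which relays SYK signals to NF-kB, had 24.9 ± 6.50 in PBS and 33.4 ± 6.55 in GA (0.43 ± 0.18, unadjusted p = 0.0292, adjusted p = 0.854). Per kilobase the most abundant gene of the list was *Tyrobp*, at 991 ± 104 CPM in PBS and 1059 ± 44.2 in GA (adjusted p = 0.910).

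*Abi3* (chr11:95830074-95842476, minus strand) had the least spread of the 10 genes over all 10 libraries. Within PBS alone its coefficient of variation, 4.61%, was above the 4.41% of *Inpp5d*. *Abi3* read 163, 152, 143, 153 and 151 CPM in PBS libraries, and 153, 145, 150, 147 and 142 in GA libraries. The highest of the 10 values exceeded the lowest 1.15-fold. Its fitted biological coefficient of variation, the spread between libraries of a group beyond counting noise, was 7.40%, lower than for all but 0.387% of tested genes. The log2 fold change was -0.05 ± 0.06 (edgeR adjusted p = 0.949), with a ratio between 0.888 and 1.05, and ran from -0.07 without PBS library 388_3 to -0.02 without PBS library 388_1. In the list of 23 WAVE complex and branched actin genes, 21 were tested, 10 higher and 11 lower, with 0 called and 0 at an unadjusted p under 0.05 by edgeR or DESeq2. *Arpc2*, a subunit of the ARP2/3 complex and the most abundant of the list per kilobase, had 462 ± 37.5 CPM in PBS and 469 ± 22.6 in GA.

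Of the clathrin and membrane genes, *Picalm* (chr7:90130213-90213465, plus strand) had a coefficient of variation of 13.6% in PBS and 13.9% in GA. Its PBS values were 176, 184, 196, 244 and 219 CPM, and its GA values were 185 and 225 (prefix 394) and 164, 162 and 181 (prefix 400). Libraries 400_1 and 400_2 lay below every PBS library, and the other 3 GA libraries lay within the PBS range. Means were 204 ± 27.7 CPM in PBS and 183 ± 25.5 in GA, with a log2 fold change of -0.15 ± 0.11 (unadjusted p = 0.167, edgeR adjusted p = 0.896) and a ratio between 0.769 and 1.05. The value was -0.08 without PBS library 388_4 and -0.24 without GA library 394_2 (unadjusted p = 0.0284, adjusted p = 0.661). By prefix it was 0.02 for the 394 libraries and -0.27 for the 400 libraries against the same 5 PBS libraries.

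Library 388_4, the highest for *Picalm*, was also the highest for *Cd2ap* and *Plcg2*. The same library had the highest summed border macrophage markers (246 CPM, with *Mrc1* at 82.8), monocyte markers (55.4 CPM, against 25.8 to 42.0 in the other 9), astrocyte markers (10.8 CPM) and endothelial markers (75.9 CPM), and the lowest microglial sum (56188 CPM). GA library 400_2 had the next highest border macrophage sum (185 CPM, with *Mrc1* at 69.3), and there *Picalm* was the lowest of the 10 (162 CPM) and *Plcg2* stood at 399 CPM. Whether these markers had a part in the 3 values of 388_4 was not tested.

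*Bin1*, on chromosome 18, read 753, 642, 723, 654 and 787 CPM in PBS. In GA it read 739 and 742 (prefix 394) and 743, 672 and 700 (prefix 400), all within the PBS range. Its log2 fold change was 0.01 ± 0.07 (edgeR adjusted p = 0.984), and the ratio lay between 0.914 and 1.12. The sign turned negative without PBS library 388_2 or 388_4.

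*Cd2ap* (chr17:42792951-42876665, minus strand) read 65.6, 72.8, 57.9, 84.3 and 74.3 CPM in PBS, and 65.4, 63.2, 56.7, 63.9 and 67.4 in GA. No GA library reached the PBS median, yet 4 of the 5 lay within the PBS range. The log2 fold change was -0.17 ± 0.09 (unadjusted p = 0.100, edgeR adjusted p = 0.895), between -0.10 without PBS library 388_4 and -0.23 without PBS library 388_3 (unadjusted p = 0.0185, adjusted p = 0.796).

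For *Rin3* (chr12:102283048-102390855, plus strand), PBS libraries read 97.3, 99.3, 87.2, 93.3 and 102 CPM, and GA libraries 94.2, 104, 81.4, 85.6 and 96.5. GA values lay on both sides of the PBS range, with 394_2 above it and 400_1 and 400_2 below it. The log2 fold change was -0.05 ± 0.08 (edgeR adjusted p = 0.953), with a ratio between 0.859 and 1.08. It ran from -0.10 without GA library 394_2 to -0.01 without GA library 400_1.

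The pathway lists around these genes gave similar counts. For clathrin endocytosis and early endosomes, 27 of 27 listed genes were tested, 11 higher and 16 lower, with 0 called by edgeR or DESeq2. The gene with an unadjusted p under 0.05 was *Ap2a2*, an AP-2 adaptor subunit, at 136 ± 10.4 CPM in PBS and 122 ± 6.13 in GA (log2 fold change -0.15 ± 0.07, unadjusted p = 0.0422, edgeR adjusted p = 0.854). Clathrin heavy chain, *Cltc*, had 863 ± 81.4 CPM in PBS and 863 ± 52.8 in GA. For retromer and endosomal sorting, 18 of 18 genes were tested, 8 higher and 10 lower, with 0 called. *Washc2*, the subunit that ties the WASH complex to retromer, had 202 ± 17.8 CPM in PBS and 227 ± 18.6 in GA (0.17 ± 0.08, unadjusted p = 0.0422, adjusted p = 0.854), and *Snx5*, the most abundant of the list per kilobase, had 503 ± 37.8 and 484 ± 15.0.

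*Sorl1* (chr9:41964720-42124297 on GRCm38, minus strand, 49 blocks of exons) had the largest fitted difference between the groups among the 10 genes. Its PBS values were 119, 108, 110, 110 and 120 CPM, a coefficient of variation of 4.78%. The GA values were 131 and 195 (prefix 394) and 118, 131 and 123 (prefix 400), a coefficient of variation of 22.5%. All GA libraries lay above the PBS median and 4 of 5 lay above every PBS library, with 400_1 inside the PBS range. Means were 113 ± 5.42 CPM in PBS and 140 ± 31.5 in GA.

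The fitted log2 fold change of *Sorl1* was 0.30 ± 0.12 (SE), a 1.23-fold higher level with a 95% interval from 1.04 to 1.46. Its unadjusted p was 0.0221, which ranked 376th among the 14481 genes, and its edgeR adjusted p was 0.848. DESeq2 gave an adjusted p of 0.578, and 0.578 was the lowest adjusted p over the 22 alternatives. An exact two-sided permutation test of *Sorl1* alone over the 10 libraries gave p = 0.0238. The difference therefore did not pass the correction over all genes.

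Library 394_2 weighed most on that value. Without it the log2 fold change was 0.15 ± 0.07 (unadjusted p = 0.0427, edgeR adjusted p = 0.713). The 394 libraries alone gave 0.53 ± 0.13 against PBS (edgeR unadjusted p = 0.00233, adjusted p = 0.999991). The 400 libraries alone gave 0.14 ± 0.08 (unadjusted p = 0.0978, adjusted p = 0.856). In all 22 alternatives the fold change stayed above 0, from 0.14 to 0.53. Library 394_2 was also the highest of the 10 for *Inpp5d* and *Rin3*. Its *P2ry12* was the lowest (5570 CPM, against 6103 to 7351 in the others), while its *Tmem119* (5790 CPM) and its sum of 10 microglial markers (57205 CPM, against 56188 to 66373 over all libraries) lay inside the range of the others. Its neutrophil sum (160 CPM) was the highest of the GA group. In PBS libraries 388_3, 388_4 and 388_5 that sum was 423, 275 and 346 CPM, and *Sorl1* read 110 to 120. In 394_2 the other non-microglial lists were not all high. The oligodendrocyte sum of 394_2 (175 CPM) was the lowest of the 10. The part of these markers in the *Sorl1* value was not tested.

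**Figure D3:**
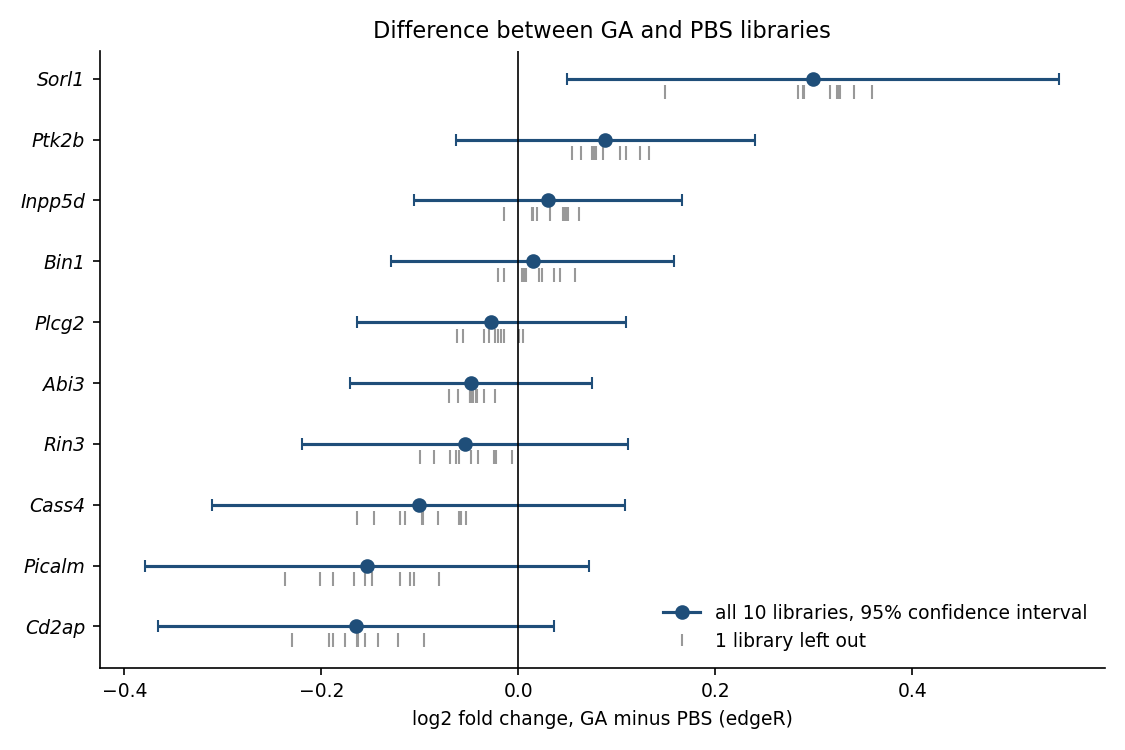
Log2 fold change of GA against PBS for each gene from edgeR (circle) with its 95% confidence interval, and below it the values with 1 library left out (ticks). The interval of *Sorl1* (0.05 to 0.55) is the only one of the 10 that does not span 0, and its leftmost tick, 0.15, is the value without GA library 394_2.

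Neither adhesion gene was called. *Ptk2b* (chr14:66153257-66281052, minus strand) read 161, 157, 167, 190 and 192 CPM in PBS, and 189, 186, 176, 192 and 176 in GA. All 5 GA values lay above the PBS median and 1 lay above every PBS value. Means were 173 ± 16.5 and 184 ± 7.36 CPM, and the log2 fold change was 0.09 ± 0.07 (edgeR adjusted p = 0.919), with a ratio between 0.957 and 1.18. Left-out libraries moved it between 0.05 (without 388_2) and 0.13 (without 388_5). *Cass4* (chr2:172393794-172433757, plus strand) read 52.4, 45.1, 40.8, 47.4 and 48.9 CPM in PBS. In GA it read 43.5, 38.7, 51.8, 38.5 and 46.1, with 2 libraries below every PBS value. Its log2 fold change was -0.10 ± 0.10 (adjusted p = 0.940), with a ratio between 0.806 and 1.08. It ran from -0.16 without GA library 400_1 to -0.05 without GA library 400_2.

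In the focal adhesion list of 22 genes, 20 were tested, 10 higher and 10 lower, with 0 called by edgeR or DESeq2. *Arhgef7*, the exchange factor beta-PIX for RAC1 and CDC42, was the gene with an unadjusted p under 0.05, at 34.8 ± 2.62 CPM in PBS and 29.3 ± 3.60 in GA (log2 fold change -0.25 ± 0.10, unadjusted p = 0.0233, edgeR adjusted p = 0.854). *Itgb2*, the integrin chain that pairs with CD11b, led the list per kilobase and had 1016 ± 86.8 CPM in PBS and 1042 ± 49.0 in GA. Of the 13 paralogs tested, 8 were higher and 5 lower, 0 were called, and *Nedd9* had an unadjusted p of 0.0455 (5.68 ± 1.42 CPM in PBS, 7.79 ± 1.70 in GA, adjusted p = 0.859).

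A list of 55 other Alzheimer risk loci placed the 10 genes among their peers. Of these, 54 were listed in the counts and 43 were tested, 24 higher and 19 lower in GA, with 0 called and 3 at an unadjusted p under 0.05 by edgeR and by DESeq2. Besides *Blnk*, these were *Tpcn1*, an endolysosomal cation channel (50.3 ± 9.73 CPM in PBS, 40.3 ± 5.51 in GA, unadjusted p = 0.0264), and *Aph1b*, a gamma-secretase subunit (1.19 ± 0.424 and 2.96 ± 1.43, unadjusted p = 0.00544, edgeR adjusted p = 0.847). *Aph1b* rests on 20 to 155 counts per library and has a near-identical mouse copy, *Aph1c*, so its reads could be split between them. *Apoe*, the most abundant of this list per kilobase, had 5736 ± 866 CPM in PBS and 6384 ± 1074 in GA (adjusted p = 0.910).

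The title prefixes within GA were compared next. In the 400 against the 394 libraries, edgeR called 0 of 10 members, against 0.0138% of all genes, and 2 members had an unadjusted p under 0.05, against 5.48% of all genes. *Sorl1* averaged 163 CPM in 394 and 124 in 400 (log2 difference -0.39 ± 0.13, unadjusted p = 0.0119, adjusted p = 0.659). The 394 mean is that of 131 and 195 CPM, and without library 394_2 the values set side by side are 131 and 124. *Inpp5d* averaged 1434 and 1261 CPM (-0.19 ± 0.08, unadjusted p = 0.0358, adjusted p = 0.865). *Picalm* averaged 205 and 169 CPM (-0.28 ± 0.14, unadjusted p = 0.0582, adjusted p = 0.939). Among the other 7 the smallest unadjusted p was 0.119, for *Rin3*.

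Members were then compared in how they varied from library to library, after the mean of each treatment was taken out of the log2 values. Over 45 pairs and 10 libraries, 35 pairs had a Pearson r above 0 and the median r was 0.26. The 4 pairs above 0.70 were drawn from *Inpp5d*, *Plcg2*, *Picalm* and *Sorl1*. *Plcg2* with *Picalm* had r = 0.86, *Inpp5d* with *Sorl1* 0.79, *Inpp5d* with *Plcg2* 0.78 and *Inpp5d* with *Picalm* 0.75. All pairs share the same libraries and scaling, and these values are descriptions without a test. Other tested genes were not compared in this way, so the pattern is not shown to be particular to these members.

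**Figure D4:**
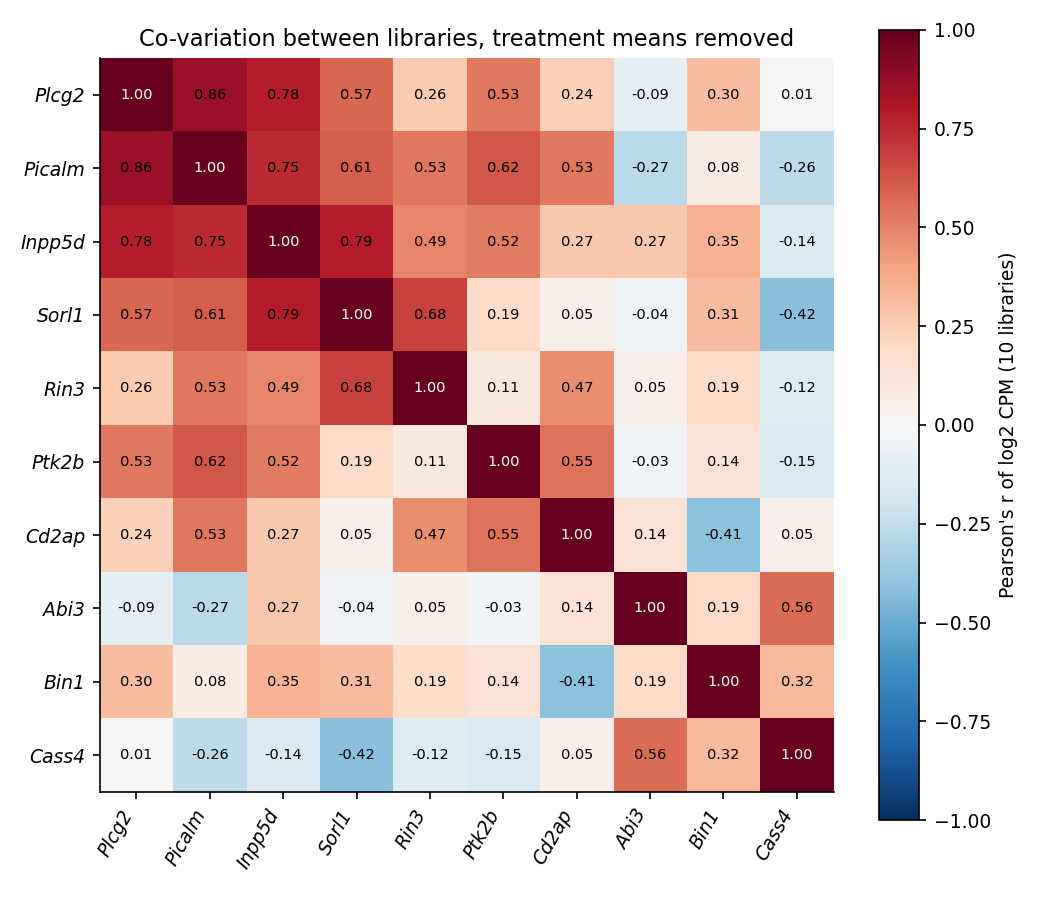
Pearson's r between the log2 CPM of each pair of genes over 10 libraries with treatment means removed, from -1 (blue) to 1 (red). *Plcg2*, *Picalm*, *Inpp5d* and *Sorl1* form the block at the upper left, and *Sorl1* with *Cass4* (-0.42) and *Bin1* with *Cd2ap* (-0.41) are the lowest pairs.

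Part of this pattern rested on GA library 394_2. Without it 36 of the 45 pairs were above 0, the median r was 0.25 and 3 pairs were above 0.70. Only 1 of the 4 pairs stayed above 0.70, *Plcg2* with *Picalm* at 0.78. *Inpp5d* with *Plcg2* fell to 0.62, *Inpp5d* with *Picalm* to 0.54 and *Inpp5d* with *Sorl1* to 0.45, and the pairs of *Sorl1* with *Picalm* and with *Plcg2* went from 0.61 to 0.02 and from 0.57 to -0.07. *Ptk2b* was at 0.76 instead of 0.62 with *Picalm* and at 0.70 instead of 0.52 with *Inpp5d*. It was at 0.63 instead of 0.53 with *Plcg2* and at 0.45 instead of 0.19 with *Sorl1*. Its pairs with *Bin1* (0.145 and 0.138), *Cd2ap* (0.55 both times) and *Rin3* (0.11 and 0.10) hardly moved. At the other end, *Bin1* with *Cd2ap* stood at -0.42 without that library, and *Sorl1* with *Cass4* went from -0.42 to -0.10. The treatment means leave in the difference between prefixes 394 and 400. With the mean of each prefix taken out instead, an alternative chosen after seeing the data, *Plcg2* with *Picalm* was 0.83 and *Inpp5d* with *Plcg2* 0.78, while *Inpp5d* with *Picalm* was 0.60 and *Inpp5d* with *Sorl1* 0.58. On that scale *Bin1* with *Cd2ap* was -0.46 and *Sorl1* with *Cass4* -0.28.

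The sequences before the transcription start are shown for these 4 genes, the ones in the pairs above 0.70 when all libraries are kept, since myeloid transcription factors act at promoters as well as at distant enhancers. RefSeq promoter windows on the GRCm38.p6 build matched 7 of the 10 members with 9 windows. The 250 bases upstream of the start are printed 5′ to 3′ on the gene's strand (the last 25 bases of each of the 4 windows, not printed, matched a GENCODE transcript of the gene in this orientation), for *Inpp5d* (chr1:87620062-87620311, plus strand), *Plcg2* (chr8:117498025-117498274, plus strand), *Picalm* (chr7:90129963-90130212, plus strand) and the first of 2 *Sorl1* starts (chr9:42124298-42124547, minus strand). Capitals mark the core GAGGAA recognised by the myeloid factor PU.1 and the GC box GGGCGG bound by SP1, on either strand.
Inpp5d: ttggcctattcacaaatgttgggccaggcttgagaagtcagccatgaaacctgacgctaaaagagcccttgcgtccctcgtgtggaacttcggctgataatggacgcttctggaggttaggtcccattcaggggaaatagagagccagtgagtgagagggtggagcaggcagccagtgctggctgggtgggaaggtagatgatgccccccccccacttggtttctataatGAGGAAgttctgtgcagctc
Plcg2: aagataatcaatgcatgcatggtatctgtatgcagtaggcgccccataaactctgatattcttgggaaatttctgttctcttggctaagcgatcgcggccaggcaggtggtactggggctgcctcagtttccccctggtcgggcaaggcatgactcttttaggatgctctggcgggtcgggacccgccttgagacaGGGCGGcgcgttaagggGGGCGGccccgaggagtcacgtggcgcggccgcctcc
Picalm: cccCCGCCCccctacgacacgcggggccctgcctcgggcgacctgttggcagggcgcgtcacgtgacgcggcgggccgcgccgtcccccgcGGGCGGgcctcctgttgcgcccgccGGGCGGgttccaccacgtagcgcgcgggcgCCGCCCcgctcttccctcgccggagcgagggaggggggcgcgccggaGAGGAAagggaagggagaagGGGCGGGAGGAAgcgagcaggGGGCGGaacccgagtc
Sorl1: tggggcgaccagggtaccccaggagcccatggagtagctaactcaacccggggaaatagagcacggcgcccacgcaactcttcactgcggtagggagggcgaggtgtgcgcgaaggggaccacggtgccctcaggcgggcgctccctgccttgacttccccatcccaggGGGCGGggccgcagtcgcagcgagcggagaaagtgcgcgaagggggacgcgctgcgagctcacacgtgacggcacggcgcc
Read against each other, these windows are of different kinds. The *Inpp5d* window holds 1 PU.1 core and no GC box, the *Picalm* window holds 2 PU.1 cores, the second of them directly after a GC box, and the *Plcg2* and *Sorl1* windows hold GC boxes alone. Among the 9 windows of the 7 members, 2 had a PU.1 core, 5 a GC box and 0 the TATA box letters TATAAA. Over all 32817 windows, 23.3% held GAGGAA, 32.7% held GGGCGG and 12.4% held TATAAA. A match is a description of letters and not a binding site, and no match says only that these letters are not in the window.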

How the data were processed

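RNA of sorted hippocampal microglia from 3xTg AD mice was sequenced in 10 libraries, 5 GA and 5 PBS, grouped by the treatment label. Per the submitters' processing notes, the authors used bcl2fastq 2.19.0, fastp 0.20.0, STAR 2.7.0f, Subread 1.6.4 with featureCounts, DESeq2 and the GRCm38.p6 genome. Strand setting and annotation are not given in the sources used here. The deposited values are raw counts per gene symbol. SMARTer amplification without molecular identifiers means that counts are not independent molecules.

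Counts were tested with edgeR 4.0.16 in R 4.3.3 (filterByExpr with a minimum count of 10, TMM factors, glmQLFit and glmQLFTest, treatment as the only term), called at an adjusted p under 0.05, Benjamini-Hochberg over 14481 genes. A second fit compared title prefixes within GA. Exact permutation tests used log2(CPM + 0.1). Intervals are 95%. DESeq2 1.42.0, limma 3.58.1, other scalings and filters, each library left out, each prefix alone and title numbers as a block were alternatives. Scripts were tested on simulated data. Lengths, positions and overlaps came from GENCODE M21, and promoter windows from RefSeq.

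All 10 members, every measured paralog, and from other lists the genes at an unadjusted p under 0.05 plus the most abundant gene per kilobase were named, along with defining markers (2 markers and 1 allele of the model are not reported here). *Gngt2*, *Zfp652*, *Phospho1* and other overlapping genes were named for their position. The members and lists were chosen with earlier results of these data known. No promoter window was used for *Bin1*, *Abi3* or *Ptk2b*.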

Additional observations from a re-analysis of the deposited data

Results flagged for a closer look

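*Sorl1* in GA library 394_2 stood at 195.05 CPM, far above the other 4 GA libraries, which ran from 118 to 131 CPM. It was the 1 value flagged by Dixon's test for a single distant sample among the 20 sets tested (10 genes in 2 groups of 5), and chance flags about 1 set in 20. The PBS group, from 108 to 120 CPM, had no such value.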

How the results depend on the processing

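The 10 members were recomputed under 22 alternatives, and 0 were called in any of them. Of 220 fold changes, 209 kept their sign and 11 turned, all from main values between -0.15 and 0.03 on the log2 scale. With the 394 libraries as the GA group these were *Plcg2* at 0.0378, *Picalm* at 0.0153 and *Rin3* at 0.0546, and with the 400 libraries *Inpp5d* at -0.0414 and *Bin1* at -0.00901. With each library left out in turn, *Inpp5d* ran from -0.0144 to 0.0618, *Plcg2* from -0.0626 to 0.0052 and *Bin1* from -0.0202 to 0.0574. The cause was not tested. Genes called among all tested were 2 with DESeq2 defaults, 3 with DESeq2 without independent filtering and its outlier cutoff, and 0 to 1 with a library left out (1 without GA library 394_1). Members at an unadjusted p under 0.05 were 2 without PBS library 388_3 or GA library 394_2. The share of all genes at that mark was not computed for these fits, so the count has no background. In the full fit it was 1 member beside 5.75% of all genes. Of the 10 places in the order of levels per kilobase, 5 were kept with the longest transcript, 6 in GA libraries alone and, chosen after seeing the data, 8 over exon bases shared with no other gene.

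Title numbers recur across prefixes, and same-numbered libraries deviated together only weakly (residual correlations from -0.14 to 0.07). The sources used here do not say what a title number stands for, and these correlations cannot show it. The number as a replicate block called 0 genes, as without it. It gave 0.28 for *Sorl1* (unadjusted p = 0.0716), 0.19 for *Ptk2b* (unadjusted p = 0.0123) and 0.0276 for *Plcg2*, whose sign it turned. *Picalm* moved from -0.15 to -0.01, *Cd2ap* from -0.17 to -0.05 and the members' median from -0.04 to 0.01. Numbers 4 and 5 occur only in PBS titles, so libraries 388_4 and 388_5 carry no weight in the GA contrast of that fit. Blocking and the loss of these libraries cannot be told apart in these shifts.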
